A study of Mus musculus with 10 samples.

Results

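The genes described here are immune checkpoint and costimulation genes, that is, surface proteins through which T cells and the cells facing them restrain or sustain T cell activity. They were taken by symbol from the deposited count table, which held all 10 of them among 54532 genes: Cd274, Pdcd1lg2, Cd80 and Cd86 on the ligand side, and Pdcd1, Ctla4, Lag3, Havcr2, Tigit and Icos on the receptor side. Bulk RNA-seq had been done on the left kidneys of male C57BL/6 mice aged 8 weeks, 14 days after the left ureter was tied (unilateral ureteral obstruction, UUO). A group of 5 mice received PBS and a group of 5 received dimethyl malonate (DMM), a prodrug of malonate, which inhibits succinate dehydrogenase, at 40 mg/kg every other day by intraperitoneal injection. All 10 kidneys were obstructed, so the comparison is between treatments and holds no unobstructed kidney. Each library held between 15722527 and 19475833 counted reads.

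T cells become fully active when the antigen signal is joined by a costimulatory signal, which Cd80 and Cd86 give through Cd28 and Icos gives on cells already activated. Ctla4 competes with Cd28 for Cd80 and Cd86, while Pdcd1 (PD-1), bound by its ligands Cd274 (PD-L1) and Pdcd1lg2 (PD-L2), recruits phosphatases that dampen the antigen signal. Lag3, Havcr2 (Tim-3) and Tigit are further inhibitory receptors. Interferons raise Cd274 in many cell types, among them tubular epithelium.

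Some libraries stood apart from others with the same label, and this bears on every result. The group means that the authors deposited leave out PBS replicate 3 and DMM replicate 1 (each enters them with weight 0), and the reason was not given in the sources used here. The methods of the study describe the comparison as made on 5 replicates. The summed level of 8 proximal tubule markers was 3642 CPM (counts scaled by TMM-adjusted library size) in PBS replicate 3 and between 495 and 1395 CPM in the other PBS-treated kidneys. It was 981 CPM in DMM replicate 1 and between 2855 and 4081 CPM in the other DMM-treated kidneys. On these markers both libraries lay in the range of the opposite group. Whether their labels had been exchanged was not tested; the labels are used as given, and an exchange would alter every value over all 10 libraries. DMM replicate 4 stood apart in another way, with a score of 122.7 on a first principal component that held 45.1% of the variance, against scores of -2.36 or less in the other 9 libraries. Results are therefore given over all 10 libraries and over the 8 that carry weight in the deposited means. The smaller set leaves out a library of each group that resembled the opposite group on the tubule markers. It shares 8 libraries with the larger set and is no independent check of it. The 10 genes described here summed to 85.9 CPM in PBS replicate 3 and between 88.7 and 121.8 CPM in the other PBS-treated kidneys. They summed to 85.8 CPM in DMM replicate 1 and between 25.6 and 57.0 CPM in the other DMM-treated kidneys. On this sum both libraries were near the PBS-treated kidneys, unlike on the tubule markers.

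Over all 10 libraries no checkpoint or costimulation gene passed the test, and over the 8 libraries Cd274, Pdcd1lg2 and Cd86 were lower in DMM-treated kidneys. A gene was called at an adjusted p under 0.05 with a fold change above 1.5 in edgeR's quasi-likelihood test. Over all 10 libraries 0 of the 10 genes and 0 of 16505 tested genes were called (0% called lower). At an unadjusted p under 0.05 with the same fold threshold, 6 of the 10 were lower, against 4.11% of tested genes. DESeq2 called 1 of the 10, Cd274, with 0.227% of its tested genes called lower. With the 8, edgeR called 3 of the 10 lower, against 3.56% of 16550 tested genes, and 6 at the unadjusted threshold, against 7.24%. DESeq2 called 5 of the 10 there, adding Lag3 and Ctla4, with 4.55% of its tested genes called lower. All 10 passed the filter on low counts. The median of their log2 fold changes came to -1.08 with all 10 libraries and -1.66 with the 8, beside medians of 0.02 and 0.02 over all tested genes. In bulk RNA, fewer cells that carry a transcript and less of it in each cell cannot be told apart.

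**Figure D1:**
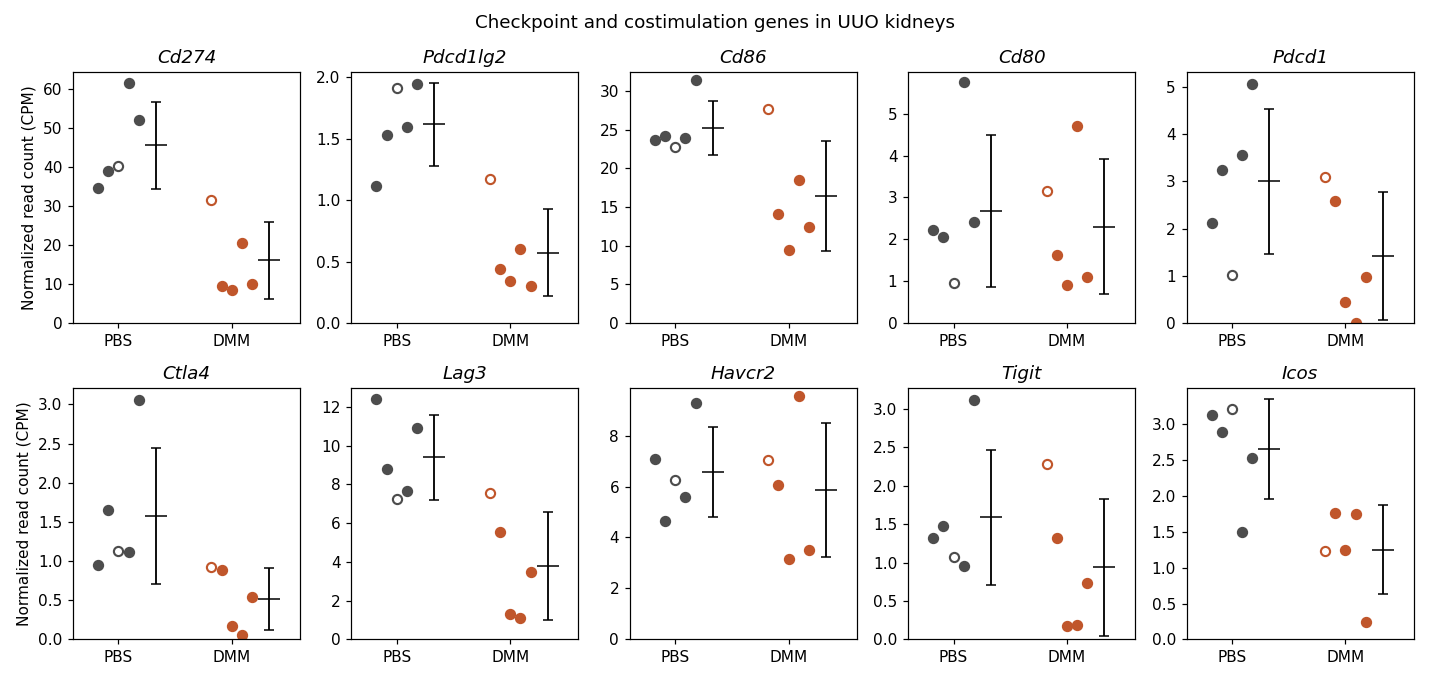
Normalized read counts (CPM, vertical axes, each from 0) of the 10 genes in 5 PBS-treated and 5 DMM-treated UUO kidneys; each point is a kidney, open points are PBS replicate 3 and DMM replicate 1, and the bars give the mean and SD of all 5. The DMM points lie below the lowest PBS point for Cd274 and Ctla4, and the groups overlap for the other genes.

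Cd274, the main ligand of Pdcd1, had the highest FPKM of the set in each PBS-treated kidney, while Cd86 was above it in DMM replicates 2, 3 and 5. Its normalized read counts in PBS replicates 1 to 5 were 34.7, 38.9, 40.4, 61.7 and 52.2 CPM. In DMM replicates 1 to 5 they were 31.7, 9.64, 8.44, 20.5 and 10.2 CPM. Every DMM-treated kidney lay below every PBS-treated one, with DMM replicate 1 just under the lowest PBS value and the other DMM values far under it. Such a separation downward was found for Cd274 and Ctla4 among the 10 genes, and for 1.16% of all tested genes. The group means were 45.6 ± 11.1 CPM with PBS and 16.1 ± 9.96 CPM with DMM (SD, n = 5 each). The log2 fold change was -1.50 ± 0.36 (SE, adjusted p = 0.378, edgeR) over all 10 libraries, and the exact permutation test gave p = 0.00794, the smallest that relabeling 5 against 5 can give. Over the 8 libraries it was -1.94 ± 0.31 (SE, adjusted p = 0.00928, edgeR), with an exact permutation p of 0.0286, the smallest that relabeling 4 against 4 can give. Cd274 was called in each of the 8 fits that leave out a further library, with an adjusted p of at most 0.0379. Leaving out DMM replicate 1 alone gave a log2 fold change of -1.91 with an adjusted p of 0.00523, whereas no other single library left out of the 10 brought a call.

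Pdcd1lg2, the second ligand of Pdcd1, lies beside Cd274 on chromosome 19. The file gives Cd274 at 29367455 to 29388095 and Pdcd1lg2 at 29410919 to 29471157 (mm10, both on the plus strand), with 22824 bases and no protein-coding gene between them. Its reads were few, 21, 26, 34, 30 and 33 in PBS replicates 1 to 5. In DMM replicates 1 to 5 they were 19, 7, 6, 10 and 5. DMM replicate 1 fell among the PBS-treated kidneys after scaling, and the other DMM-treated kidneys lay below all of them. The log2 fold change was -1.49 ± 0.38 (SE, adjusted p = 0.378, edgeR) over all 10 libraries and -1.85 ± 0.34 (SE, adjusted p = 0.0157) over the 8. The call over the 8 libraries was held in 3 of 8 fits that leave out a further library, and adjusted p ranged from 0.00258 to 0.0644. It was lost without PBS replicate 2, 4 or 5 and without DMM replicate 3 or 5. Across the 10 libraries Cd274 and Pdcd1lg2 had a Pearson r of 0.96 in log2 CPM, which includes the difference between treatments.

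The stretch before each transcript start is shown because this neighbouring pair was called together. The sequences are RefSeq's for GRCm38.p6, plus strand, and run from 250 bases before the start up to it, at chr19:29367188-29367437 for Cd274 and chr19:29410669-29410918 for Pdcd1lg2. Capitals mark AANNGAAA, a core bound by interferon regulatory factors, on either strand.
Cd274: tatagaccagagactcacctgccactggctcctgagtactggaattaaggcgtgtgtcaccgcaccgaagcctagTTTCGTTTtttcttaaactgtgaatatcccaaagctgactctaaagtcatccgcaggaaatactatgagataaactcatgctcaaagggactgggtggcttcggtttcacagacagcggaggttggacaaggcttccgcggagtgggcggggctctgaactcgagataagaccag
Pdcd1lg2: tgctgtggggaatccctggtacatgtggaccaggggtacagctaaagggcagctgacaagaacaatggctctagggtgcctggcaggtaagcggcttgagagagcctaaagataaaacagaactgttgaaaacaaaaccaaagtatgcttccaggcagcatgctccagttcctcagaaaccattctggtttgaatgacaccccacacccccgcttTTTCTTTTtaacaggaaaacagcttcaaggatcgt
Such a sequence was in the reference table used here for 7 of the 10 genes; those of Lag3, Icos and Cd86 were not analysed here. A first search on both strands used 5 motifs: the interferon-response repeat (GAAA, any 2 bases, GAAA), the STAT motif TTCNNNGAA, and the kappa-B forms GGAANTCCC and GGGG or GGGA followed by any base and TTTCC. It found 0 matches in the 7 sequences, where 2.98%, 7.02%, 1.43%, 0.365% and 0.356% of 32851 promoters hold these motifs. The shorter AANNGAAA was then chosen after the Cd274 sequence had been read and seen to hold it, so its matches were selected for and support nothing. It is held by 3 of the 7, Cd274, Pdcd1lg2 and Pdcd1, and by 21.3% of all promoters.

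Cd86 and Cd80 are the B7 costimulators of antigen-presenting cells. Cd86 measured 23.6, 24.2, 22.7, 23.9 and 31.4 CPM in PBS replicates 1 to 5. It measured 27.7, 14.1, 9.41, 18.5 and 12.4 CPM in DMM replicates 1 to 5. DMM replicate 1 was higher than 4 of the PBS-treated kidneys, and the other DMM-treated kidneys lay below all of them. The log2 fold change was -0.62 ± 0.25 (SE, adjusted p = 0.429, edgeR) over all 10 libraries and -0.92 ± 0.21 (SE, adjusted p = 0.0341) over the 8. That call was held in 1 of 8 fits with a further library left out, the fit without DMM replicate 4, where it had an adjusted p of 0.00148, and adjusted p in the others reached 0.110. Cd80 was lower in level and showed no such separation: PBS-treated kidneys ranged from 0.956 to 5.75 CPM and DMM-treated kidneys from 0.907 to 4.71 CPM. Its log2 fold change was -0.22 ± 0.54 (SE, adjusted p = 0.876) over all 10 libraries and -0.58 ± 0.57 (SE, adjusted p = 0.606) over the 8. Without PBS replicate 4 Cd80 stood at -0.11 over the remaining libraries of the 8 (adjusted p = 0.953). Without DMM replicate 4 Cd80 was called over the remaining libraries of the 8, at -1.36 with an adjusted p of 0.0447. In that fit 5 of the 10 genes were called, against 7.61% of tested genes called lower.

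The receptors of T cells and NK cells were counted in few reads. Lag3, which binds MHC class II, had the most reads of them in each PBS-treated kidney, while Havcr2 had more in DMM replicates 2 to 5. Lag3 measured 12.4, 8.77, 7.25, 7.66 and 10.9 CPM in PBS replicates 1 to 5. Its values were 7.53, 5.55, 1.30, 1.09 and 3.47 CPM in DMM replicates 1 to 5. DMM replicate 1 fell within the PBS range and the other DMM-treated kidneys below it. Its log2 fold change was -1.31 ± 0.47 (SE, adjusted p = 0.388, edgeR) over all 10 libraries and -1.80 ± 0.48 (SE, adjusted p = 0.0577) over the 8. Lag3 was called in 2 of 8 fits with a further library left out. These were -2.35 without DMM replicate 2 (adjusted p = 0.0221) and -1.54 without DMM replicate 4 (adjusted p = 0.0184). In the others adjusted p reached 0.151. Ctla4 had 18, 28, 20, 21 and 52 reads in PBS replicates 1 to 5 and 15, 14, 3, 1 and 9 reads in DMM replicates 1 to 5. After scaling, the DMM-treated kidneys all lay below the PBS-treated ones. Its log2 fold change of -1.60 ± 0.58 (SE) over all 10 libraries did not pass (adjusted p = 0.388), and the exact permutation test gave p = 0.00794. Over the 8 libraries it was -2.02 ± 0.68 (SE, adjusted p = 0.118), and it ranged from -2.68, without DMM replicate 2, to -1.57 with a further library left out.

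Pdcd1 had between 18 and 86 reads in PBS-treated kidneys and between 0 and 50 in DMM-treated kidneys. The 0 was in DMM replicate 4, where 3 reads would be 0.181 CPM, a limit that covers counting error only. The Pdcd1 groups overlapped, with the lowest PBS value in PBS replicate 3. Tigit, a receptor for nectin-family ligands, ranged from 18 to 53 reads with PBS and from 3 to 37 with DMM, also with overlap. Icos ranged from 28 to 59 reads with PBS and from 4 to 29 with DMM. Their log2 fold changes over all 10 libraries were -1.08 ± 0.75 for Pdcd1, -0.76 ± 0.64 for Tigit and -1.08 ± 0.42 for Icos (SE, adjusted p = 0.578, 0.635 and 0.408, edgeR). Fitted over the 8, they were -1.80 ± 0.80, -1.51 ± 0.66 and -0.999 ± 0.508 (SE, adjusted p = 0.235, 0.227 and 0.301). Leaving out DMM replicate 1 alone took Tigit to -1.40, which was not called either. Some other single libraries left out of the 10 moved Tigit the other way. It stood at -0.36 without PBS replicate 5, -0.49 without DMM replicate 3 and -0.50 without DMM replicate 4. The remaining single libraries left it between -0.91, without DMM replicate 2, and -0.68, without DMM replicate 5. Leaving DMM replicate 2 out of the 8 took Pdcd1 to -2.86 and Tigit to -2.24, with an adjusted p of 0.0796 and 0.0980. The smallest differences over the 8 were -1.39 for Pdcd1, without DMM replicate 4, and -1.06 for Tigit, without PBS replicate 5. Their adjusted p was 0.0744 and 0.509. Havcr2, which macrophages and dendritic cells also carry, differed least, at 6.57 ± 1.77 CPM with PBS and 5.87 ± 2.63 CPM with DMM (SD, n = 5 each). Its log2 fold change was -0.16 ± 0.31 (SE, adjusted p = 0.840), and DMM replicate 4 held the highest value of all 10 kidneys.

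**Figure D2:**
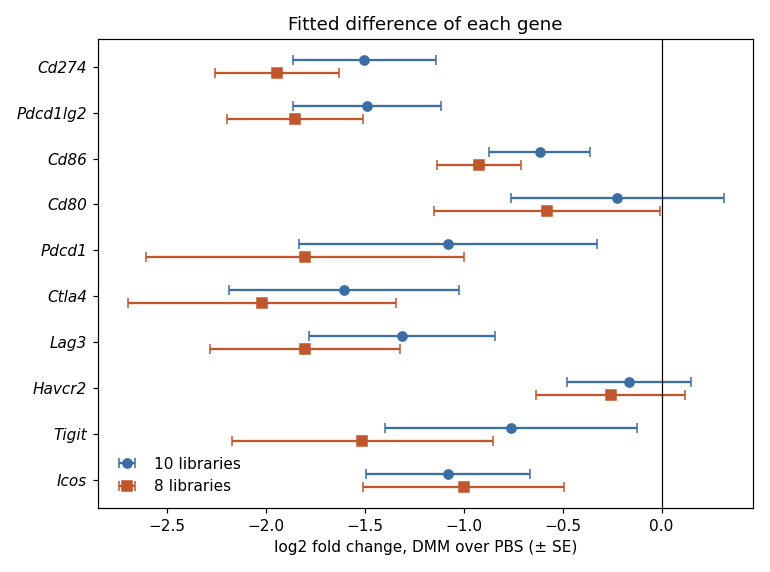
Fitted log2 fold change of DMM over PBS (horizontal axis, bars ± SE) for each of the 10 genes, over all 10 libraries (circles) and over the 8 libraries (squares). Fitted values lie below 0 for all 10 genes in both sets, from -1.60 (Ctla4) to -0.16 (Havcr2) over all 10 libraries.

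In the 8 libraries 5 of the 10 genes had no overlap between groups, with DMM lower: Cd274, Pdcd1lg2, Cd86, Lag3 and Ctla4. This was so for 10.6% of all tested genes. Over all 10 libraries the groups overlapped for Pdcd1lg2, Cd86 and Lag3 through DMM replicate 1 alone. The separation of these genes over the 8 is therefore partly set by leaving that library out. With DMM replicate 1 alone left out, edgeR called Cd274, Pdcd1lg2 and Cd86, 3 of the 10, against 2.6% of tested genes called lower.

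Levels were compared between genes by the authors' FPKM, which divides by gene length. In PBS-treated kidneys Cd274 led with 12.5 ± 3.07 FPKM, followed by Cd86 with 6.82 ± 0.964 FPKM and Lag3 with 4.42 ± 1.03 FPKM (SD, n = 5 each). The ranges of these neighbours in the order did not overlap, and Lag3 was likewise above Havcr2 at 2.40 ± 0.648 FPKM. From Havcr2 down through Tigit, Pdcd1, Pdcd1lg2, Icos, Cd80 and Ctla4, at 0.674 ± 0.371 FPKM, each gene's range overlapped that of the next. In DMM-treated kidneys Cd274 and Cd86 stood at 4.41 ± 2.74 and 4.46 ± 1.94 FPKM (SD, n = 5 each), without separation. Cd274 made up between 39.1% and 54.4% of the summed CPM of the 10 genes with PBS and between 22.0% and 36.9% with DMM.

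The genes most alike in pattern to each member were taken by Pearson r of log2 CPM over the 10 libraries, as a description that includes the treatment difference. Cd274 was most like Rsad2 (r = 0.975), Dtx3l (0.973) and Hk3 (0.972), of which Rsad2 and Dtx3l are interferon-induced. Pdcd1lg2 was most like March5 (0.988), Iigp1 (0.972) and Ccrl2 (0.971), and Cd86 was most like Mmp25 (0.982), Xcr1 (0.980), a receptor of cross-presenting dendritic cells, and BE692007 (0.971). Among the receptors, Ctla4 was most like Zap70 (0.982), Tlr11 (0.971) and Izumo1r (0.955), and Tigit was most like Trac (0.973), Izumo1r (0.961) and Adamts7 (0.943). Zap70 and Trac belong to the T cell receptor complex and its signalling. Pdcd1 was nearest to Vstm4 (0.981), Gm35558 (0.979) and Ip6k3 (0.979), and Lag3 to Art2b (0.986), Cpxm1 (0.981) and Mmp2 (0.980). Havcr2 was nearest to Nsmaf (0.945), Nostrin (0.927) and Il1rl1 (0.917), Icos to Cenph (0.913), Gm32618 (0.913) and Cc2d2a (0.908), and Cd80 to Has2 (0.983), Thbs1 (0.981) and Tvp23a (0.976).

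Other ligands, receptors and partners of the pathway were read from a list of 30 genes, of which 26 were tested. With all 10 libraries 0 were called, 11 were lower at the unadjusted threshold, against 4.11% of all tested genes, and the median log2 fold change was -0.59. The 8 libraries gave 5 calls, all lower: Lgals9, Cd276, Cd40, Cd48 and Cd226, against 3.56% of all tested genes called lower, and the median was -0.73. Lgals9, a ligand of Havcr2, had the highest mean CPM of the list over both groups pooled (not corrected for length), though Nectin3 and Nectin2 were higher with DMM. It averaged 200.5 ± 29.5 CPM with PBS and 90.0 ± 59.7 CPM with DMM (SD, n = 5 each). Its log2 fold change was -1.16 (adjusted p = 0.378) over all 10 libraries and -1.73 (adjusted p = 0.000379) over the 8. Cd48 stood at -0.80 (adjusted p = 0.0221) and Cd40, the costimulatory receptor of antigen-presenting cells, at -1.06 (adjusted p = 0.00808) over the 8. With a further library left out, the calls of Lgals9 and Cd40 were held in 8 of 8 fits, that of Cd276 in 6 and those of Cd48 and Cd226 in 2 each. Adjusted p of Cd48 then reached 0.0811, with the call lost without any PBS replicate of the 8 and without DMM replicate 3 or 5, as for Cd226. Tnfsf4, Tnfsf18, Cd70 and Cd40lg had too few reads to be tested, at most 14 in any library.

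Interferon receptor signalling, known to drive Cd274, was read from 15 genes, 14 of them tested. Over all 10 libraries 0 were called, 5 were lower at the unadjusted threshold (4.11% of all tested genes), and the median was -0.31. Restricted to the 8, 5 were called lower, among them Irf1, Irf9 and Socs1, beside 3.56% of all tested genes, with a median of -0.44. Irf1, a transcription factor that binds interferon-response elements, averaged 139.6 ± 12.6 CPM with PBS and 67.1 ± 35.1 CPM with DMM (SD, n = 5 each), with no overlap. Its log2 fold change was -1.06 (adjusted p = 0.378) over all 10 libraries and -1.39 (adjusted p = 0.0115) over the 8, and that of Irf9 was -0.92 (adjusted p = 0.378) and -1.33 (adjusted p = 0.00136). Ifnar2 stood at -0.47 over the 8 (adjusted p = 0.0489), short of the fold threshold. The calls of Irf1 and Irf9 were held in 8 of 8 fits with a further library left out, and that of Socs1 in 1, the fit without DMM replicate 4. Stat3, highest in mean CPM over both groups pooled and just below Jak1 with DMM, stood at 0.04 and -0.01 (adjusted p = 0.876 and 0.956). Jak2, which lies 54375 bases from Cd274, stood at -0.04 and -0.06. Ifng itself had at most 7 reads in any library and was not tested.

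Of 13 kinases, phosphatases and adaptors that act on the cytoplasmic side of the receptors, 13 were tested. Over all 10 libraries 0 were called, 5 were lower at the unadjusted threshold (4.11% of all tested genes), and the median was -0.55. When the 8 were fitted, 4 were called lower, among them Pik3cd, Ptpn6 and Vav1, beside 3.56% of all tested genes, with a median of -0.77. Ptpn6, the phosphatase SHP-1, stood at -0.77 (adjusted p = 0.0252) and Vav1 at -0.73 (adjusted p = 0.0256). Both calls were held in 3 of 8 fits with a further library left out and lost without PBS replicate 1, 4 or 5 and without DMM replicate 3 or 5, with an adjusted p of up to 0.0944 and 0.0930. That of Pik3cd was held in 8 of 8. The most abundant, Pik3r1, stood at 0.26 (adjusted p = 0.579). Of 12 transcription factors of activated and exhausted T cells, 0 were called in either set of libraries by edgeR, with 1 and 3 lower at the unadjusted threshold (4.11% and 7.24% of all tested genes), 0 and 2 by DESeq2, and medians of -0.35 and -0.62. Nr4a1, which T cell receptor signals induce, averaged 33.7 ± 16.4 CPM with PBS and 15.0 ± 6.74 CPM with DMM (SD, n = 5 each; adjusted p = 0.385 and 0.119). Nfatc1, Nfatc2 and Batf stood at -0.38, -0.43 and -0.98 over the 8 libraries, with adjusted p of 0.150, 0.0979 and 0.118.

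Markers of cells known to carry these genes varied across the same libraries. The 12 T cell markers, with Cd4 the most abundant, summed to 62.4, 70.2, 63.4, 50.6 and 96.9 CPM in PBS replicates 1 to 5. They summed to 61.2, 51.4, 20.7, 25.2 and 27.4 CPM in DMM replicates 1 to 5. DMM replicates 1 and 2 lay within the PBS range and the other 3 below it. No T cell marker was at 0 reads in any library, and 2 of 12, Cd4 and Cd2, were called lower over the 8 libraries, where 3.56% of all tested genes were; the same share stands behind the lower calls of the other marker lists. At the unadjusted threshold 7 of 12 T cell markers were lower over all 10 libraries and 9 of 12 over the 8. The checkpoint and costimulation genes gave 6 and 6 of 10, and all tested genes 4.11% and 7.24%. The T cell markers had median log2 fold changes of -0.89 and -1.17, and 12 of 12 lay below 0 in both sets. Cd4 stood at -1.19 (adjusted p = 0.0271), Cd5 at -1.11 (adjusted p = 0.118) and Cd3d at -1.37 (adjusted p = 0.166). The Cd4 call was held in 3 of 8 fits with a further library left out, with an adjusted p of up to 0.0922, and lost without PBS replicate 2, 4 or 5 and without DMM replicate 3 or 5. That of Cd2 was held in 5 and lost without PBS replicate 2 or 5 and without DMM replicate 3. The receptors Pdcd1, Ctla4, Lag3, Tigit and Icos together made 13.7 to 24.6 CPM with PBS and 3.08 to 15.1 CPM with DMM. The part of T cell number in these values was not tested.

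The 12 macrophage and monocyte markers, led by Lyz2, summed to 2498, 2526, 1987, 2282 and 2707 CPM in PBS replicates 1 to 5. In DMM replicates 1 to 5 they summed to 2351, 1690, 1342, 1166 and 1359 CPM. DMM replicate 1 again lay in the PBS range and the others below it, and 3 of 12, Ly6c2, Cd68 and C1qb, were called lower over the 8 libraries. Ly6c2, a marker of inflammatory monocytes, stood at -2.85 (adjusted p = 0.00713), Cd68 at -0.97 (adjusted p = 0.0108) and Adgre1 at -0.65 (adjusted p = 0.0959). The calls of Ly6c2 and Cd68 were held in 8 of 8 fits with a further library left out, and that of C1qb in 1, the fit without DMM replicate 4. At the unadjusted threshold 6 and 7 of the 12 were lower over all 10 and over the 8 libraries, against 4.11% and 7.24% of all tested genes. The medians of this list were -0.60 and -0.80. The 8 dendritic cell markers, led by Itgax, summed to 140.2 ± 14.5 CPM with PBS and 93.4 ± 31.5 CPM with DMM (SD, n = 5 each). Of these Ccr7 and Itgax were called lower over the 8 libraries, at -1.64 and -1.30 (adjusted p = 0.00963 and 0.0148), and Clec9a stood at -0.80 (adjusted p = 0.0574). The Itgax call was lost without PBS replicate 5 or DMM replicate 5, with an adjusted p of up to 0.0562. The unadjusted threshold was passed downward by 2 and 4 of the 8 in the larger and the smaller set, against 4.11% and 7.24% of all tested genes. The dendritic cell markers had medians of -0.47 and -0.65. The part of these cells in the values of Cd274, Pdcd1lg2 and Cd86 was not tested.

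Among regulatory T cell markers Il2ra was called over the 8 libraries at -2.19 (adjusted p = 0.0106), while Foxp3 stood at -1.60 (adjusted p = 0.0687) and Ikzf2, the most abundant, at -0.05 (adjusted p = 0.924). Of 6 NK cell markers Klrk1 was called, at -1.60 (adjusted p = 0.0148; up to 0.0586, without PBS replicate 5 or DMM replicate 5 not called), and Gzma and Prf1 stood at -0.98 and -0.55 (adjusted p = 0.172 and 0.231). No B cell or endothelial marker was called over the 8 libraries: Cd79b, Ms4a1 and Cd79a stood at -0.08, -0.65 and -0.75, and Pecam1, Flt1, Kdr and Tek at 0.03, 0.54, 0.22 and 0.20. At the unadjusted threshold 0 of 4 B cell and 0 of 6 endothelial markers were past it in either set. Over all 10 and over the 8 libraries, 2 and 2 of 3 regulatory T cell markers and 2 and 2 of 6 NK cell markers were lower. So were 0 and 4 of 6 fibroblast and myofibroblast markers, and 4.11% and 7.24% of all tested genes. Of 8 proximal tubule markers 4 were called higher, among them Lrp2 at 1.97, Cubn at 1.73 and Slc5a12 at 2.11 (adjusted p = 0.0138, 0.0113 and 0.00812), against 2.73% of all tested genes called higher. The libraries left out of the 8 are those that lay in the opposite group's range on these same markers, so this separation is partly set by leaving them out, and over all 10 libraries 0 were called. At the unadjusted threshold 2 and 7 of the 8 were higher over all 10 and over the 8 libraries, against 1.91% and 6.45% of all tested genes. The Lrp2 call was also lost without PBS replicate 5 (adjusted p = 0.0590). Of 6 fibroblast and myofibroblast markers Postn and Col1a2 were called lower, at -1.78 and -1.11 (adjusted p = 0.00683 and 0.0207), and Col3a1 stood at -1.01 (adjusted p = 0.148). Postn was called in 8 of 8 fits with a further library left out and Col1a2 in 3, with an adjusted p of up to 0.0702 and the call lost without PBS replicate 2, 4 or 5 and without DMM replicate 3 or 5. The fit to all 10 libraries called 0 genes of these marker lists.

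Several members lie close to genes of the lists. On chromosome 1, Ctla4 (60887000 to 60915832) lies 62095 bases from Icos (60977927 to 61000320) and 113641 bases from Cd28, their costimulatory relative. On chromosome 6, Lag3 (124904361 to 124911705, minus strand) lies 16140 bases from Cd4, with no protein-coding gene between them. Cd28 stood at -1.46 over the 8 libraries (adjusted p = 0.103), beside -2.02 for Ctla4 and -0.999 for Icos. Ctla4 and Icos each overlap a gene on their own strand, Rpl18-ps1 and Gm37039, with at most 5 and 4 reads in any library.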

How the data were processed

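RNA from 10 UUO kidneys was sequenced on a NovaSeq X Plus, 1 library for each mouse. Alignment by the authors was to mm10; the submitters' processing notes name HISAT2 2.0.5. The counts deposited by the authors are reads per gene without normalization, and whether counting used strand was not given in the sources used here. The FPKM deposited by the authors divides counts by gene length and library size and entered no test. The group means that the authors deposited are a signal in scaled counts, used only to recover each library's weight by non-negative least squares (scipy 1.17.1). Columns with the authors' own log2 fold changes and p-values were not used. Columns of per-sample values left unused number 0.

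Counts were filtered by filterByExpr, scaled by TMM and tested with edgeR 4.0.16 (R 4.3.3) by the quasi-likelihood test, with Benjamini-Hochberg adjustment over all tested genes. DESeq2 1.42.0 was an alternative. Single genes were also tested by exact two-sided permutation of log2 CPM (prior count 2), over every relabeling of the libraries. These steps were first checked on simulated counts in which 200 genes differed 3-fold. The members and lists were chosen with earlier results of these data known. Named genes were every member, the most abundant gene and the 3 of smallest p over all 10 libraries in each list, the 3 genes most correlated with each member, and list genes beside a member; other called genes are named after their values were seen. Values of some list genes are not reported here, though counts and medians include them. Of 6 promoter motifs searched, 1 was added after a promoter had been read. Reads are not independent molecules, so limits from counts cover counting error only.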

Additional observations from a re-analysis of the deposited data

Results flagged for a closer look

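Icos in DMM replicate 5 had 4 reads (0.243 CPM), and its gap to the nearest DMM-treated kidney made up 0.8 of the whole range of the group in log2 CPM. Cd86 in PBS replicate 5 had 533 reads (31.4 CPM), with a gap of 0.805 of the range to the nearest PBS-treated kidney. Both gaps are above Dixon's 95% critical value for 5 samples, 0.71. In all 20 groups of 5 values were checked in this way, and chance flags about 1 group in 20.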

How the results depend on the processing

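Of 308 alternative fits of the 10 members, 278 kept direction and side of the threshold, 15 lost a call and 13 gained one, and 2 changed sign, for Havcr2 and Cd80 (below). Over all 10 libraries the count of members called was 0 in edgeR, 1 in DESeq2, 6 at an unadjusted p under 0.05 and 3 over the 8 libraries; of all genes it was 0, 50, 993 and 1042. Leaving out a library gave 0 to 3 members and 0 to 486 genes, the upper values without DMM replicate 1. The lists of partners, interferon signalling, receptor signalling and transcription factors gave 11, 5, 5 and 1 at the unadjusted threshold, 5, 5, 4 and 0 over the 8 libraries, and 0 to 4, 0 to 4, 0 to 3 and 0 to 0 without a library.

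Over the 8 libraries, DESeq2 called 5 members and 1660 genes against 3 and 1042 in edgeR, and the unadjusted threshold 6 and 2265. Leaving out a further library gave 1 to 5 members and 407 to 2410 genes, the most without DMM replicate 4. The same lists gave 8, 5, 6 and 2 in DESeq2, 13, 5, 8 and 3 at the unadjusted threshold, and 2 to 12, 4 to 5, 1 to 6 and 0 to 2 without a library. With the replicate number as a block, 0 members, 0 genes and 0 genes of each list were called in either set of libraries. Over the 8, Cd274 then stood at -1.99 ± 0.24 (SE, adjusted p = 0.0586). Pdcd1lg2 stood at -1.91 ± 0.55 and Cd86 at -0.83 ± 0.26 (SE, adjusted p = 0.255 and 0.297). Same-numbered samples deviated with correlations from -0.22 to 0.34, and 1 of 5 PBS libraries correlated best with its own number. With so few libraries these correlations cannot decide whether the numbers pair the mice, and the methods of the study name no pairing. Scaling by library size alone moved the median of all genes over the 8 libraries from 0.02 to -0.09, and members called stayed at 3. For each of these differences the cause was not tested.

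Changes of sign concerned genes that were not called. Without a library, log2 fold changes over all 10 ranged from -0.41 to 0.0045 for Havcr2, -0.66 to 0.26 for Cd80, -0.249 to 0.0811 for Ikzf2, -0.608 to 0.0897 for Cd79a, -0.0292 to 0.133 for Pecam1, -0.0265 to 0.243 for Tek and -0.0070 to 0.33 for Pik3r1. Over the 8 they ranged from -0.0416 to 0.0473 for Stat3, -0.0600 to 0.387 for Pik3r1, -0.355 to 0.0887 for Ikzf2, -0.0675 to 0.150 for Pecam1 and -0.0441 to 0.313 for Tek. Stat3 stood at -0.0361 over all 10 with library size alone and at -0.0135 over the 8. Pecam1 stood at -0.0433 over all 10 and -0.0929 over the 8 with library size alone, and at -0.0502 over the 8 with the replicate block. Depth limits Pdcd1lg2, Ctla4, Tigit and Icos, with fewer than 60 reads in every library.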
